A study of Mus musculus with 9 samples.

Results

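A group of 9 genes of cholesterol efflux and lipoprotein handling was followed in mouse macrophages, namely Abca1, Abcg1, Apoe, Apoc1, Apoc2, Pltp, Lpl, Mylip and Arl4c. They were taken by symbol as known targets of the liver X receptors (LXR), and all 9 were among the 24061 gene symbols of the count table, 8 of them with reads. The cells were bone-marrow-derived macrophages (BMDMs), primary macrophages grown from the marrow of C57BL/6J mice, which were females aged 8 to 10 weeks according to the methods. RNA-seq of polyadenylated RNA covered 3 groups of 3 libraries, each a separately differentiated culture according to the methods, with 13299044 to 16467983 counted reads a library. Cultures were differentiated for 7 days and deprived of serum for 1 day, and every group was then treated without serum, in medium that held 4% of L-cell conditioned medium. The vehicle group (Veh) received DMSO alone, and the time of its RNA harvest is not stated. The LPS group received DMSO for 3 hr and then 10 ng/mL LPS, a bacterial ligand of TLR4, for 2 hr. The T0+LPS group received 500 nM T0901317 (T0), a synthetic LXR agonist, for 3 hr, and the same LPS was then added to the agonist medium for 2 hr. No library with T0 alone was analysed here, so T0 was compared only under LPS.

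LXRs are nuclear receptors that are activated by oxysterols and bind DNA as heterodimers with RXR. In macrophages their targets include transporters that export cholesterol, apolipoproteins that accept it, enzymes and transfer proteins that remodel lipoproteins, and a ligase that limits lipoprotein uptake. T0901317 is also known to activate other nuclear receptors.

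The libraries carried macrophage transcripts. Of 8 macrophage markers, 7 were over 1 CPM (read counts per 1e6, scaled by TMM), with Lyz2 the most abundant at a mean of 21637 CPM, and Adgre1 was listed under its older symbol Emr1. The exception was Itgam, which had 3 unshared exon bases of 4682 and 0 reads. Summed macrophage markers were 28039 CPM in Veh, 32831 CPM in LPS and 35779 CPM in T0+LPS, and the part of this difference in the results was not tested. Among neutrophil markers 3 of 8 were over 1 CPM and the sum was 80.4, 94.1 and 93.9 CPM in Veh, LPS and T0+LPS, nearly all of it Mmp8, while Retnlg was at 0, as was S100a9 on 3 unshared bases of 524. Dendritic cell markers summed to 0.343 CPM in Veh, 2.69 CPM in LPS and 2.69 CPM in T0+LPS, and their part in the results was not tested, with 2 of 6 over 1 CPM, Xcr1 the most abundant, Siglech at 0, and Clec9a at 0 without an unshared base. T cell markers summed to at most 3.37 CPM, almost all of it Cd4, with Cd3e at 0, Lck at 0 on 224 unshared bases of 2298 and Cd8a at 0 on 31 of 3130, and B cell markers to at most 2.45 CPM, mostly Cd79b, with Pax5 at 0. Markers of mast cells and basophils (highest Cpa3), fibroblasts and stroma (highest Col1a2), adipocytes (highest Adipoq) and erythroid cells (highest Klf1) summed to at most 0.0793, 0.661, 0.139 and 0.331 CPM in any library. Of these, Kit (16 unshared bases of 5181), Plin1 (56 of 1916), Hba-a1 (6 of 1118), Hbb-bs (9 of 639) and Hbb-bt (0 of 630) were at 0 with few or no bases on which a read could count.

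With T0 added to LPS, Abcg1, Abca1, Arl4c and Mylip had the largest fold changes of the 8 measured genes, and the most abundant genes, Apoe and Lpl, the smallest. In T0+LPS against LPS, 7 of the 8 measured genes were called higher, where 1.35% of the 9348 genes tested were called higher, and Apoe was the exception. That count was 5 without LPS replicate 1 and 6 without any 1 of the other libraries compared. None was called lower (0 of 8 with edgeR, 0 at an unadjusted p under 0.05 and 0 with DESeq2), where 1.83% of all genes were. Calls throughout are those of edgeR, with p adjusted over all genes tested by the method of Benjamini and Hochberg (BH) and a threshold of 0.05. The median log2 fold change was 0.92 over the 8 genes and 0.00 over all genes tested, and for 7 of these 8 genes every library of one group lay above every library of the other, against 19.1% of all genes. Ranked by log2 fold change, Abcg1 was number 4, Abca1 number 7, Arl4c number 8 and Mylip number 11 of 9348. Over all genes, 126 were called higher and 171 lower, against 59 and 82 without LPS replicate 1, 78 and 94 without T0+LPS replicate 2, and 86 and 103 without T0+LPS replicate 1.

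LPS without T0 went with changes in both directions. In LPS against Veh, 2 of 8 were called higher and 5 lower, where 32.9% and 31.2% of the 9559 genes tested were called higher and lower. Whether these shares differ was not tested. The higher count was 1 without LPS replicate 1 or 2 or any 1 Veh library, and the lower count was 3 without LPS replicate 1 or Veh replicate 1 or 3. The median was -0.17 over the 8 genes and 0.00 over all genes, and groups did not overlap for 5 of 8, against 67.4%. For T0+LPS against Veh, 5 of 8 were called higher and 1 lower, where 32.4% and 32.9% of the 9636 genes tested were. That comparison had a median of 0.26 over the 8 genes and -0.03 over all genes, and groups did not overlap for 6 of 8, against 69.4%. The 3 comparisons share libraries and are given side by side. Comparisons with Veh depend on the scaling. With library totals in place of TMM factors, the median of all genes moved to -0.28 in LPS against Veh and to -0.29 in T0+LPS against Veh, and the lower share of all calls went from 48.6% to 76.2% and from 50.4% to 76.9%. Of the 8 genes, library totals gave 1 higher and 7 lower in LPS against Veh, and 3 and 3 in T0+LPS against Veh. Fold changes against Veh are therefore relative to the median of all genes.

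**Figure D1:**
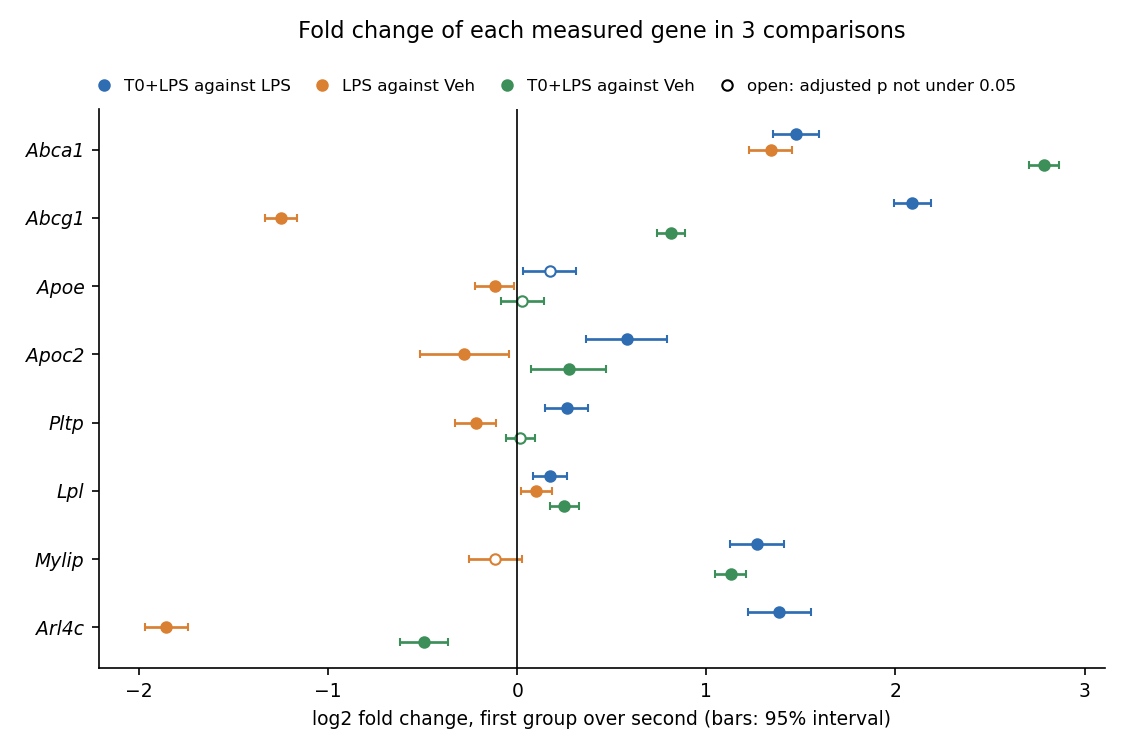
Log2 fold change of the 8 measured genes in 3 comparisons, with 95% intervals, from 3 libraries a group (filled points have an adjusted p under 0.05). Abca1 lies above 0 in all 3 comparisons, while Abcg1 and Arl4c are below 0 in LPS against Veh and above 0 in T0+LPS against LPS. With library totals Lpl lies below 0 in LPS against Veh, and Apoe, Pltp and Lpl lie below 0 in T0+LPS against Veh.

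Abca1 and Abcg1 encode the exporters that pass cellular cholesterol to lipid-poor apolipoprotein A-I and to HDL. In the mm10 build Abca1 spans bases 53030789 to 53159895 of chromosome 4 (minus strand) in 50 exons. Its level was 723, 733 and 730.3 CPM in the Veh libraries, 1899.7, 1661 and 1961 CPM in LPS, and 4915, 5117 and 5284 CPM in T0+LPS. Every LPS library was above every Veh library and every T0+LPS library above every LPS library. The log2 fold change was 1.34 (SE 0.05) for LPS against Veh (edgeR BH-adjusted p = 1.4e-12), and 1.47 (SE 0.06) for T0+LPS against LPS (edgeR BH-adjusted p = 1.4e-10). Over both treatments Abca1 rose 6.90-fold (95% interval 6.54 to 7.28) against Veh, a log2 fold change of 2.79 (SE 0.04, edgeR BH-adjusted p = 1.7e-18). As these are bulk samples, more cells that express a gene and more RNA per cell cannot be told apart.

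The promoters of Abca1, Arl4c and Apoc2 are shown because these genes were all called higher in T0+LPS against LPS and the windows hold a match to one of the motifs searched. LXR-RXR is known to prefer 2 copies of the half-site AGGTCA in the same orientation with 4 free bases between them (DR4). RefSeq gave windows of 300 bases (250 before and 50 after the start, build GRCm38.p6) for 6 of the 9 genes, Abca1, Apoe, Apoc2, Pltp, Mylip and Arl4c. Both strands were searched for DR4 with at most 3 of the 12 half-site letters differing, which 21.9% of 32851 windows held, and for the lone AGGTCA without a difference, which 16.3% held. The Abca1 window (chr4:53159846-53160145, minus strand) had 1 DR4 match with 3 letters differing, on the opposite strand, from -67 to -52 of the start, counted with the first transcribed base as 1. Arl4c (chr1:88702142-88702441, minus strand) had 2, each with 3 letters differing on the opposite strand, from -75 to -60 and from -65 to -50, and they share a half-site. Apoc2 (chr7:19677892-19678191, minus strand) had no DR4 match and 2 half-sites, from -115 to -110 and from 43 to 48. The windows of Apoe (3 of them), Pltp and Mylip held neither motif. Capitals mark the half-site letters of each match. A match describes letters only, and binding of LXR at it was not tested here.
Abca1: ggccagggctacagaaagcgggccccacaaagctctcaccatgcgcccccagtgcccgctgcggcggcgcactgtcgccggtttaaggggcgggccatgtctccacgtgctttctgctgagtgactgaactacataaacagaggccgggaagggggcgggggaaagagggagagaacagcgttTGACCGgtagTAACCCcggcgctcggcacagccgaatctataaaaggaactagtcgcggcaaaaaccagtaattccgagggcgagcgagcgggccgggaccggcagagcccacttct
Arl4c: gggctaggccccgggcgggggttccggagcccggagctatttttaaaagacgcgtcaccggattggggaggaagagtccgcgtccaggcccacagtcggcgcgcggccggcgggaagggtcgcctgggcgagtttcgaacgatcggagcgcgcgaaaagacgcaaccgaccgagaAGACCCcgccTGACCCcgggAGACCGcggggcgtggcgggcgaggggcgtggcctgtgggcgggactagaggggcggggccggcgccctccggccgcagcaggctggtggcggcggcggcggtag
Apoc2: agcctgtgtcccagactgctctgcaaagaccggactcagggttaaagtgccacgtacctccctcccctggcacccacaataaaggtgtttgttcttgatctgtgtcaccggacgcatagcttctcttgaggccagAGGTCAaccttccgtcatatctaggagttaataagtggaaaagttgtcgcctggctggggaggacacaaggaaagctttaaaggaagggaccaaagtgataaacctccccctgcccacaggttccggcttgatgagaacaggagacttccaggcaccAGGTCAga

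Abcg1 fell with LPS and rose above its vehicle level once T0 was present. Its position in mm10 is bases 31057694 to 31117981 of chromosome 17 (plus strand). The Veh libraries held 910.1, 912 and 905 CPM, the LPS libraries 376, 373 and 394 CPM, and the T0+LPS libraries 1628, 1664.5 and 1572 CPM. The 3 groups were apart from each other, and the spread within each was small. The LPS mean was 41.9% of the Veh mean (log2 fold change -1.25, SE 0.04, edgeR BH-adjusted p = 7.3e-14). T0+LPS was 4.26-fold (95% interval 3.98 to 4.55) above LPS, a log2 fold change of 2.09 (SE 0.05, edgeR BH-adjusted p = 8e-14), and it stood at 178% of the Veh mean (log2 fold change 0.81, SE 0.03, edgeR BH-adjusted p = 4.2e-12). Abca1 and Abcg1 were thus called in opposite directions in LPS against Veh and both higher in T0+LPS against LPS.

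**Figure D2:**
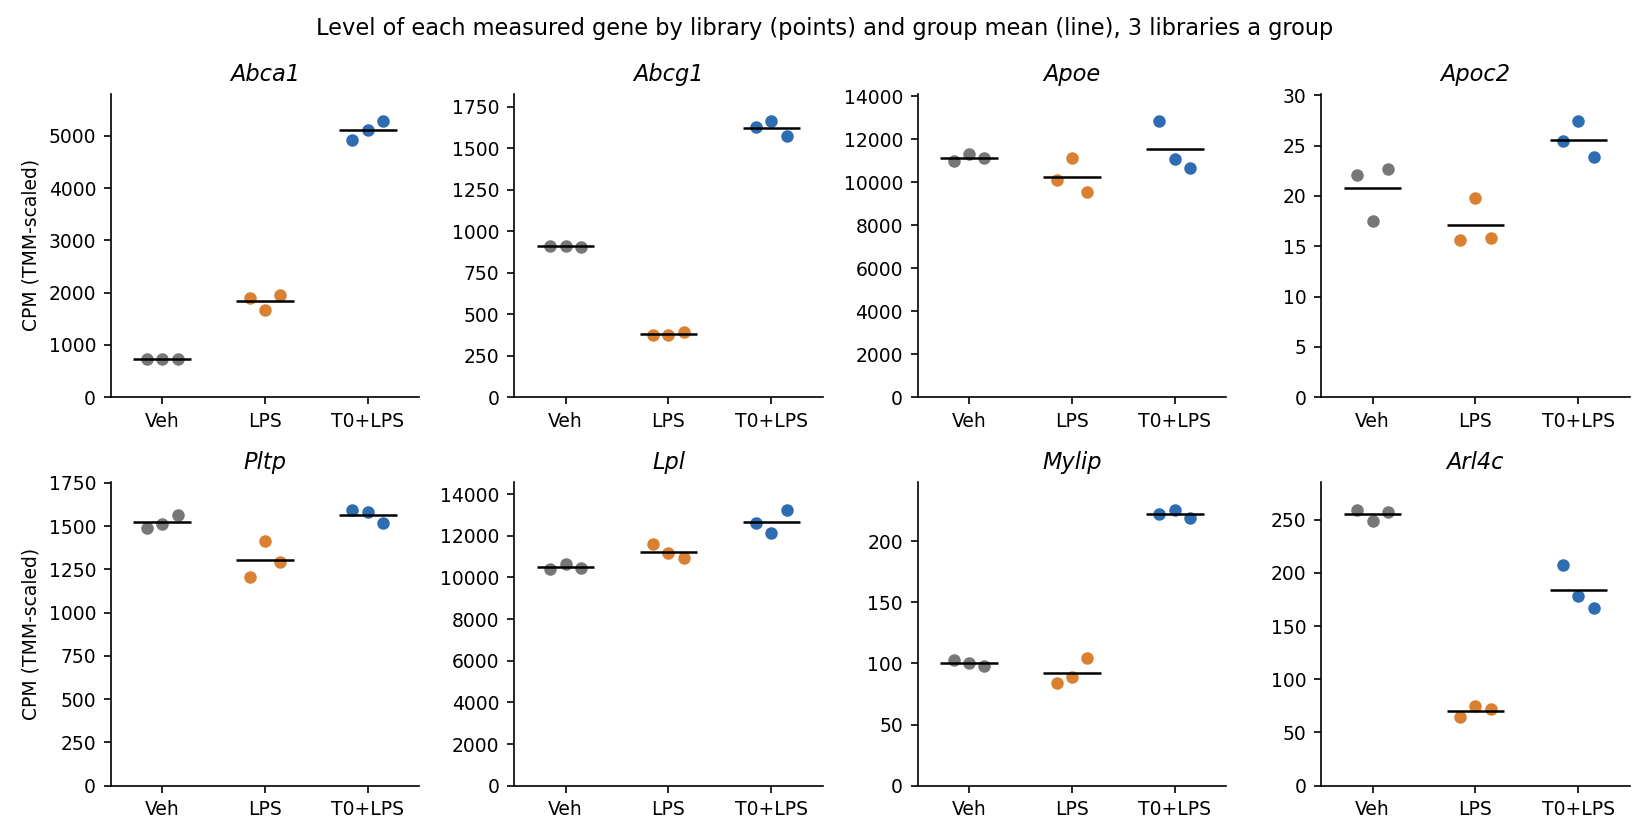
Level of each measured gene in every library (points, TMM-scaled CPM, axis from 0) and the mean of 3 libraries (line) in Veh, LPS and T0+LPS. Abcg1 and Arl4c are lowest in the LPS group, Abca1 rises from 729 to 1841 to 5105 CPM, and the lowest library of Apoe lies at 9528 CPM.

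Apoe encodes apolipoprotein E, a secreted protein of lipoprotein particles, and Apoc2 the activator of lipoprotein lipase. With Apoc1 they lie in a cluster of 27588 bases of chromosome 7 (mm10), Apoc2 from 19671579 to 19677941, Apoc1 from 19689480 to 19692659 and Apoe from 19696244 to 19699166, all on the minus strand. Apoc4, between Apoc2 and Apoc1, had 2 reads over 9 libraries. Apoc1 had 2 rows with 122 unshared of 554 exon bases and 0 reads in every library, and since reads on shared bases were not counted, its level was not measurable here.

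The Apoe libraries held 10998, 11328 and 11113 CPM in Veh, 10081, 11105 and 9528 CPM in LPS, and 12843, 11101 and 10645 CPM in T0+LPS. Each group overlapped with the others, and the highest value was the first T0+LPS library. For T0+LPS against LPS the log2 fold change was 0.17 (SE 0.07) and did not pass (edgeR BH-adjusted p = 0.23). In LPS against Veh it was -0.12 (SE 0.05), which passed narrowly (edgeR BH-adjusted p = 0.043). That call was lost without LPS replicate 1 or 3 or any 1 Veh library (edgeR BH-adjusted p = 0.088 without LPS replicate 1, 0.074 without LPS replicate 3, and 0.05, 0.13 and 0.089 without Veh replicates 1, 2 and 3), and with all 9 libraries in the fit (0.085), over a range of 0.00056 to 0.13 with 1 library left out. T0+LPS against Veh gave 0.03 (SE 0.05, edgeR BH-adjusted p = 0.67), a value that turned to -0.05 without T0+LPS replicate 1 (edgeR BH-adjusted p = 0.26) and to a call of lower with library totals (-0.24, edgeR BH-adjusted p = 0.00099).

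The level of Apoc2 was 22.1, 17.5 and 22.6 CPM in Veh, 15.6, 19.8 and 15.8 CPM in LPS, and 25.4, 27.4 and 23.8 CPM in T0+LPS. The T0+LPS libraries were above all others, and Veh and LPS overlapped. Apoc2 rose in T0+LPS against LPS by a log2 fold change of 0.58 (SE 0.10, edgeR BH-adjusted p = 0.0037), and the value stayed between 0.52 and 0.70 with any 1 library left out. LPS against Veh gave -0.28 (SE 0.11, edgeR BH-adjusted p = 0.037), a call lost without LPS replicate 1 or 3 or Veh replicate 1 or 3 (edgeR BH-adjusted p = 0.14, 0.094, 0.12 and 0.15) and in DESeq2 (BH-adjusted p = 0.081, 0.00034 to 0.081 over the other settings). Against Veh, T0+LPS gave 0.27 (SE 0.09, edgeR BH-adjusted p = 0.017), which did not pass without T0+LPS replicate 2 (0.072) or Veh replicate 2 (0.088) and was 0.01 with library totals (0.93, where the settings ranged from 0.0024 to 0.93).

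Pltp encodes phospholipid transfer protein, which remodels HDL, and Lpl encodes lipoprotein lipase, which hydrolyses triglycerides of lipoproteins. Pltp spans bases 164839518 to 164857708 of chromosome 2 in mm10 (minus strand), and 1311 of its 1806 exon bases were unshared. Its level was 1487, 1512 and 1567 CPM in Veh, 1204, 1416 and 1295 CPM in LPS, and 1595, 1579 and 1516 CPM in T0+LPS. The LPS libraries were below all others, and Veh and T0+LPS overlapped. Pltp fell in LPS against Veh (log2 fold change -0.22, SE 0.05, edgeR BH-adjusted p = 0.0014) and rose in T0+LPS against LPS (0.26, SE 0.05, edgeR BH-adjusted p = 0.013). The second call was lost without LPS replicate 1 (edgeR BH-adjusted p = 0.11) and without T0+LPS replicate 2 (0.063). Against Veh, T0+LPS gave 0.02 (SE 0.04, edgeR BH-adjusted p = 0.69), and with library totals Pltp was called lower (-0.25, edgeR BH-adjusted p = 1.6e-05).

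Lpl (bases 68880555 to 68906932 of chromosome 8 in mm10, plus strand) had small steps between the groups. Its libraries held 10427, 10630 and 10469 CPM in Veh, 11608, 11180 and 10943 CPM in LPS, and 12635, 12142 and 13261 CPM in T0+LPS. Every LPS library lay above every Veh library, and every T0+LPS library above every LPS library. T0+LPS against LPS gave a log2 fold change of 0.17 (SE 0.04, edgeR BH-adjusted p = 0.036), a call lost without any 1 of LPS replicates 1, 2 and 3 or T0+LPS replicates 1 and 3 (edgeR BH-adjusted p = 0.1, 0.096, 0.052, 0.089 and 0.18). LPS against Veh gave 0.10 (SE 0.04, edgeR BH-adjusted p = 0.032), a call lost without LPS replicate 1 or 2 or any 1 Veh library (edgeR BH-adjusted p = 0.11, 0.054, 0.082, 0.068 and 0.1), and with library totals Lpl was called lower (-0.18, edgeR BH-adjusted p = 0.0002). T0+LPS against Veh gave 0.25 (SE 0.04, edgeR BH-adjusted p = 1.5e-05), a call lost with library totals (-0.01, edgeR BH-adjusted p = 0.73).

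Mylip encodes the ubiquitin ligase IDOL, which limits lipoprotein uptake. Mylip spans bases 45389742 to 45411940 of chromosome 13 in mm10 (plus strand). Its level was 102, 100.2 and 98.2 CPM in Veh, 84.1, 88.7 and 104 CPM in LPS, and 223, 226 and 219 CPM in T0+LPS. Veh and LPS overlapped, and T0+LPS stood apart from both. Mylip rose 2.41-fold (95% interval 2.18 to 2.66) in T0+LPS against LPS, a log2 fold change of 1.27 (SE 0.07, edgeR BH-adjusted p = 1e-08). T0+LPS against Veh gave 1.13 (SE 0.04, edgeR BH-adjusted p = 3.2e-13). LPS against Veh gave -0.12 (SE 0.07, edgeR BH-adjusted p = 0.13), which passed without LPS replicate 3 (-0.22, edgeR BH-adjusted p = 0.00066), with library totals (-0.40, 9.7e-05) and without a filter on low counts (-0.14, 0.025), where leaving out 1 library gave 0.00066 to 0.54.

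Arl4c encodes a small GTPase of the ARF family and fills bases 88698226 to 88702191 of chromosome 1 in mm10 (minus strand) with 1 exon. Of the 8 measured genes it had the lowest fold change in LPS against Veh. Its libraries held 259.5, 248.5 and 258 CPM in Veh, 64.2, 74.5 and 72.4 CPM in LPS, and 207.5, 178 and 167 CPM in T0+LPS. The groups were apart, with T0+LPS between the others. The LPS mean of Arl4c was 27.6% of the Veh mean (log2 fold change -1.85, SE 0.05, edgeR BH-adjusted p = 2.4e-14). T0+LPS was 2.61-fold (95% interval 2.33 to 2.93) above LPS (log2 fold change 1.39, SE 0.08, edgeR BH-adjusted p = 2e-08) but stood at 72.2% of Veh (log2 fold change -0.49, SE 0.06, edgeR BH-adjusted p = 2.5e-06). Abcg1 and Arl4c were thus both lower in LPS than in Veh and higher in T0+LPS than in LPS, while T0+LPS lay above Veh for Abcg1 and below Veh for Arl4c.

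Levels of different genes can be set beside each other only per length, as TMM-scaled CPM per kilobase of unshared exon. In Veh the order was Apoe (8910.0 ± 134, SD, n = 3), Lpl (2595 ± 26.5), Pltp (1161 ± 31.4), Abcg1 (156 ± 0.609), Abca1 (71.0 ± 0.484), Arl4c (64.3 ± 1.48), Mylip (33.6 ± 0.711) and Apoc2 (28.5 ± 3.86). No 2 neighbours in that order overlapped in their libraries, nor in the orders of the other groups. LPS put Abca1 (179 ± 15.5) above Abcg1 (65.5 ± 1.95), and moved Arl4c (17.7 ± 1.38) below Mylip (31.0 ± 3.58) and Apoc2 (23.5 ± 3.24). In T0+LPS, Abca1 (498 ± 18.0) and Abcg1 (279 ± 7.98) came after Apoe (9216 ± 927), Lpl (3131.5 ± 139) and Pltp (1193 ± 32.1), and Mylip (74.6 ± 1.18), Arl4c (46.4 ± 5.31) and Apoc2 (35.2 ± 2.47) followed. Among 21066 genes ranked per length, Apoe was number 3 in every group, Lpl number 10, 13 and 9, and Abca1 number 940, 446 and 145 in Veh, LPS and T0+LPS. Over all exon bases, Pltp was 843, 723 and 866 per kilobase, which left its place unchanged. Together the genes held 2.83% to 2.90% of counts in Veh libraries, 2.31% to 2.42% in LPS and 3.00% to 3.20% in T0+LPS. Apoe and Lpl made up 84.2% to 86.2% of these reads in Veh and LPS libraries and 72.6% to 74.8% in T0+LPS.

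**Figure D3:**
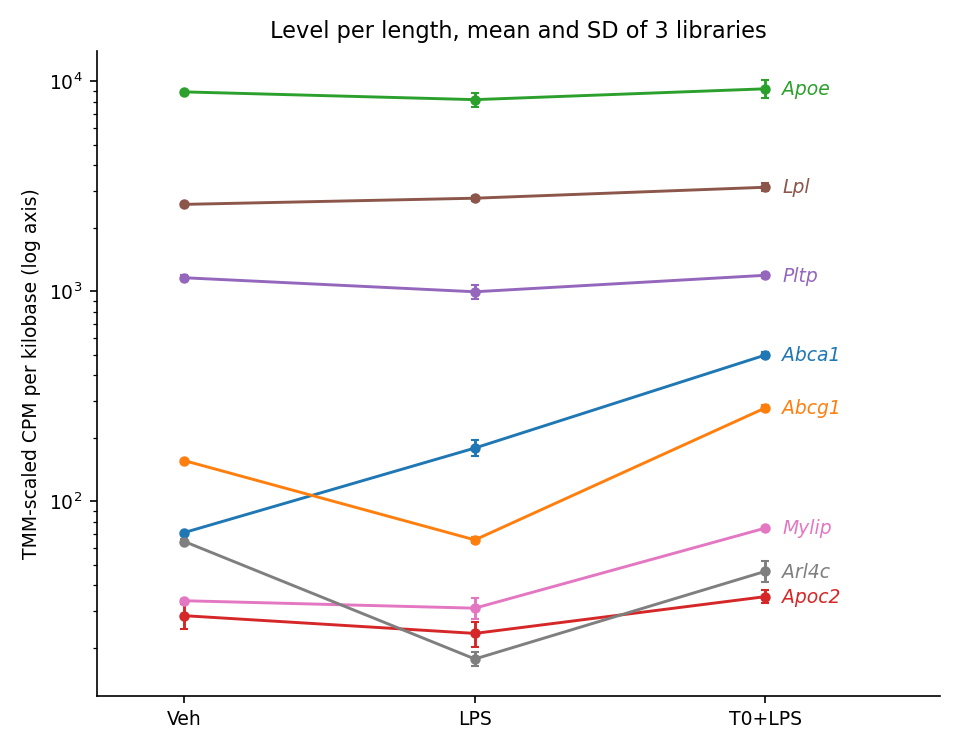
Level per length of the 8 measured genes (TMM-scaled CPM per kilobase of unshared exon, log axis), mean and SD of 3 libraries a group. Abca1 and Abcg1 exchange places between Veh and LPS, and Arl4c is the lowest of the 8 in LPS at 17.7.

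The members' own profiles differed. Over 9 libraries, with log2(CPM + 1) centred on each gene's mean, the closest pair was Apoe and Pltp (root mean square difference 0.085 on the log2 scale), and the most distant was Abca1 and Arl4c (1.53). Abca1 and Abcg1 differed by 1.1. Among 7291 other genes with a mean of at least 5 CPM, those nearest to Abca1 were Rnf145 (0.44), Parp8 (0.46) and Pim2 (0.48), and those nearest to Abcg1 were Eepd1 (0.41), Mertk (0.43) and Osgin1 (0.53). Nearest to Apoe were Dgat1, Mob2 and Dtnbp1 (0.05 each), and nearest to Lpl were Gde1 (0.03), Polr2h (0.04) and Ddx49 (0.04). Gde1 held 73.8, 79.6 and 86.5 CPM in Veh, LPS and T0+LPS. Rnf145 held 91.0, 286 and 387 CPM and Eepd1 89.0, 38.9 and 91.4 CPM in Veh, LPS and T0+LPS.

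Of other known LXR targets, 8 of 10 tested in T0+LPS against LPS passed as higher and 0 as lower. Over all genes, 1.35% passed as higher and 1.83% as lower. The lower count of the list was 0 at an unadjusted p under 0.05 and 0 with DESeq2, and the list median was 0.96. Scd2 and Scd1, desaturases of fatty acids, rose by log2 fold changes of 3.92 (SE 0.07, edgeR BH-adjusted p = 1.7e-14) and 3.18 (SE 0.12, edgeR BH-adjusted p = 9.1e-11). Srebf1, a regulator of fatty acid synthesis, rose 2.47-fold (edgeR BH-adjusted p = 4.8e-11), and Mertk, a receptor for the uptake of apoptotic cells, by a log2 fold change of 1.06 (SE 0.06, edgeR BH-adjusted p = 2.9e-08). LPS against Veh had 3 of 9 higher and 4 lower (32.9% and 31.2% over all genes), with a median of -0.02. There Mertk (log2 fold change -0.81), Scd2 (-0.68) and Cd5l (-0.60) fell, and Srebf1 (0.36) rose, although with library totals 0 of 9 passed as higher and Srebf1 was at 0.08 (edgeR BH-adjusted p = 0.16). In the comparison of T0+LPS with Veh, 8 of 10 were higher and 1 lower (32.4% and 32.9% over all genes), with a median of 1.08, and Scd2 (3.22), Scd1 (3.13), Srebf1 (1.64) and Fasn (1.23) had the largest changes among called genes with a mean of at least 5 CPM. The 1 called lower, Cd5l, was named after its values were seen. Its groups overlapped, and the count was 0 without T0+LPS replicate 3, 0 with DESeq2 and 1 at an unadjusted p under 0.05.

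Among 7 genes of lipoprotein uptake, the median in T0+LPS against LPS was 0.02. At an unadjusted p under 0.05, 0 were higher and 2 lower, and DESeq2 called 0 and 1. With edgeR, 0 of 7 were called higher and 1 lower, where 1.35% and 1.83% of all genes were. The 1 was Olr1, the receptor for oxidised LDL, at 53.4 ± 5.46 CPM in T0+LPS and 75.8 ± 7.02 CPM in LPS (SD, n = 3), a log2 fold change of -0.50 (edgeR BH-adjusted p = 0.0016). Olr1 was at 0.277 ± 0.123 CPM in Veh, and Msr1, a scavenger receptor, rose by a log2 fold change of 2.43 in LPS against Veh, while Lrp1 (-0.23) fell. In all, LPS against Veh gave 2 of 8 higher and 3 lower, or 5 lower with library totals, where 32.9% and 31.2% of all genes were called higher and lower, and the median was -0.16. The counts in T0+LPS against Veh were 2 higher and 4 lower (32.4% and 32.9% over all genes) with a median of -0.19, with Msr1 (2.40) and Sorl1 (-0.26) among the called.

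Of genes for intracellular cholesterol, edgeR called 0 of 11 in T0+LPS against LPS (1.35% higher and 1.83% lower over all genes), with a median of 0.03. At an unadjusted p under 0.05, 1 was higher and 1 lower, DESeq2 called 0, and 1 was lower without LPS replicate 3. In LPS against Veh, 5 were higher and 5 lower (32.9% and 31.2% over all genes) with a median of 0.12, among them Ch25h, which makes 25-hydroxycholesterol (4.97), Gramd1a (2.13), Gramd1b (0.78) and the sterol hydroxylase Cyp27a1 (-0.99). For the same genes T0+LPS against Veh had 6 higher and 5 lower (32.4% and 32.9% over all genes), with a median of 0.13, and the same 4 genes were at 4.86, 2.11, 0.89 and -0.83. Of other apolipoproteins and lipoprotein enzymes, few passed the filter on low counts (2, 3 and 4 in the 3 comparisons, with medians of -0.12, -0.15 and -0.57). None was called with T0 under LPS by edgeR, at an unadjusted p under 0.05 or by DESeq2, each 0. Over all genes, edgeR called 1.35% higher and 1.83% lower there. LPS against Veh called 1 higher and 1 lower (2 lower with library totals), where 32.9% and 31.2% of all genes were. Without a filter the higher count was 2 with edgeR and 2 with DESeq2, and over the genes tested DESeq2 gave 1. T0+LPS against Veh called 1 higher and 2 lower, where 32.4% and 32.9% of all genes were. Its higher count was 2 without a filter, with edgeR and with DESeq2, and 1 with DESeq2 over the genes tested. The lower count was 1 without T0+LPS replicate 1 or 2 or Veh replicate 1 or 3. It was also 1 with DESeq2, with all 9 libraries and with either other filter. Lcat, named after its values were seen, was the 1 called higher in both comparisons with Veh. Angptl4, which encodes an inhibitor of lipoprotein lipase, fell from 11.1 ± 0.812 CPM in Veh to 0.590 ± 0.183 CPM in LPS (SD, n = 3), a log2 fold change of -4.22, and was 0.625 ± 0.184 CPM in T0+LPS (-4.16 against Veh).

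Of other ABCA and ABCG transporters, 0 of 9 were called in T0+LPS against LPS (1.35% higher and 1.83% lower over all genes). The count was 0 at an unadjusted p under 0.05 and 0 with DESeq2, and the median was -0.18. Whether these transporters differ from Abca1 and Abcg1 was not tested. In LPS against Veh, 1 was higher and 4 lower (32.9% and 31.2% over all genes) with a median of -0.20, including Abca5 (-0.41), Abca2 (-0.35), Abca9 (-0.32) and Abca7 (0.27), the last of which was -0.01 with library totals, where the higher count was 0. T0+LPS against Veh had 1 higher (0 with library totals) and 6 lower (32.4% and 32.9% over all genes) with a median of -0.34, including Abca5 (-0.58), Abca2 (-0.51), Abca8b (-0.41) and Abca9 (-0.34). The Abca8b call was lost with DESeq2 (BH-adjusted p = 0.058) and without T0+LPS replicate 1 (edgeR BH-adjusted p = 0.051).

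Among receptors and cofactors, the LXR and RXR genes described here had few reads on few unshared bases. Nr1h2, which encodes LXRβ, had 4 unshared of 2022 exon bases and 2 reads, Nr1h3, which encodes LXRα, 315 of 2036 bases and 97 reads, and Rxra 459 of 5466 bases and 101 reads. For T0+LPS against LPS, 0 of 7 were called (1.35% higher and 1.83% lower over all genes), with a median of 0.06. At an unadjusted p under 0.05, 0 were higher and 1 lower, and DESeq2 called 0. In LPS against Veh, where 32.9% and 31.2% of all genes were called higher and lower, 0 were higher and 3 lower with a median of -0.50 (at an unadjusted p under 0.05, 0 and 3; DESeq2, 0 and 3; 1 higher without LPS replicate 1). The lower ones were Pparg (0.499-fold of its Veh level), Ncoa3 (log2 fold change -0.76) and Ppard (-0.61). T0+LPS against Veh had 1 higher and 4 lower (32.4% and 32.9% over all genes), with a median of -0.37. Pparg (-0.97), Ncoa3 (-0.73), Ppard (-0.56) and Ncoa1 (-0.17) were the lower ones, and the higher one was Nr1h3, which is also among the other LXR targets and is counted in both lists, with 47 reads in T0+LPS and 21 in Veh (log2 fold change 1.41, SE 0.34, edgeR BH-adjusted p = 0.0019). Nr1h3 gave 0.60 (SE 0.34) in T0+LPS against LPS (edgeR BH-adjusted p = 0.48). Rxra gave -0.76 (SE 0.43) in T0+LPS against Veh (edgeR BH-adjusted p = 0.13), which passed without T0+LPS replicate 1 (-1.54, edgeR BH-adjusted p = 0.008) and with library totals (-1.02, edgeR BH-adjusted p = 0.043, where leaving out 1 library gave 0.008 to 0.49), and -0.22 (SE 0.31) in LPS against Veh (edgeR BH-adjusted p = 0.57).

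**Figure D4:**
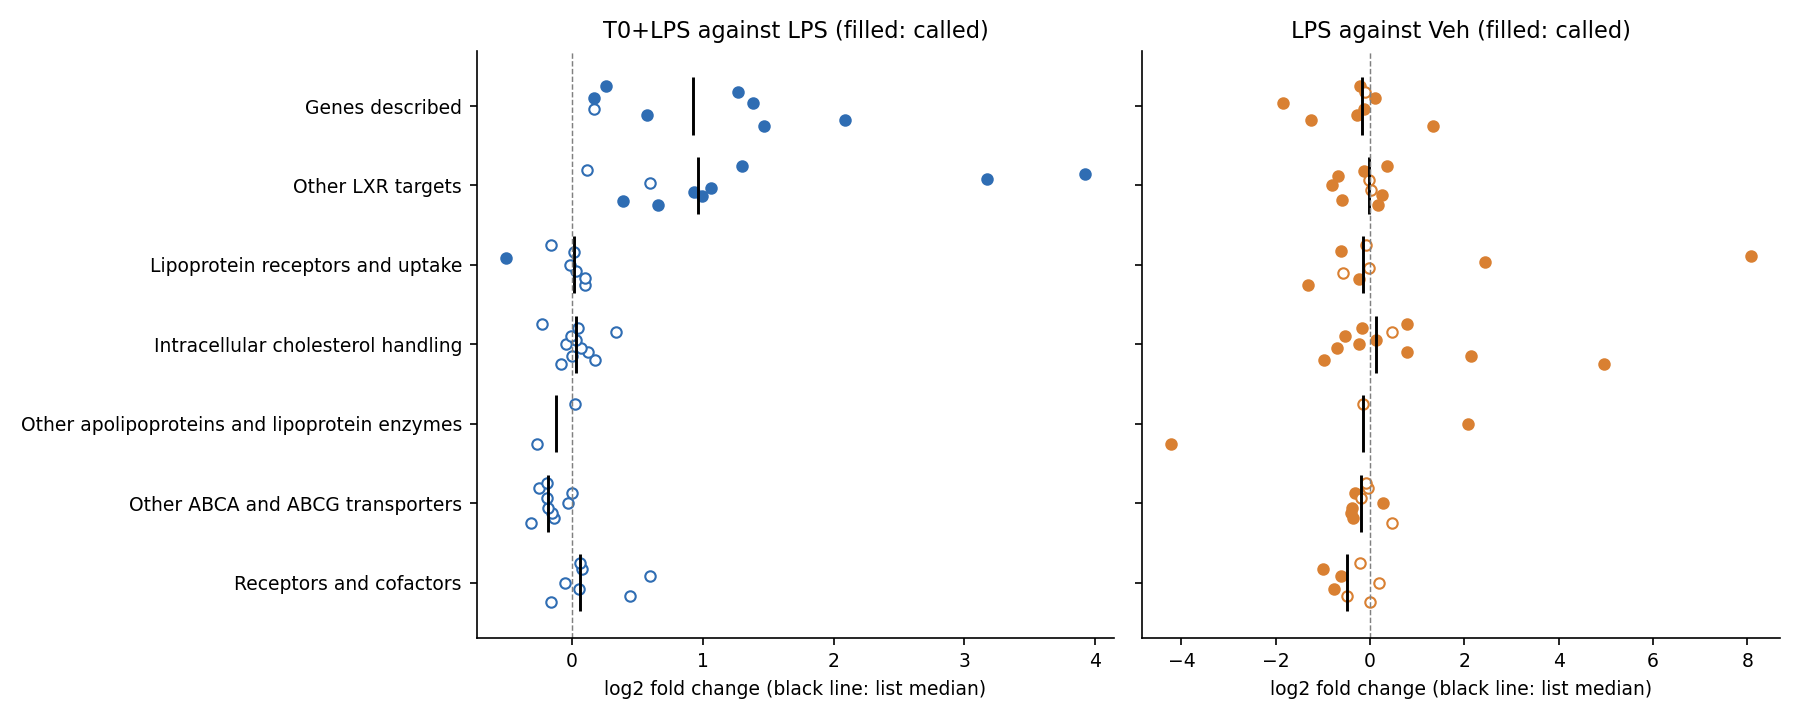
Log2 fold changes of the genes described and of 6 lists of related genes in T0+LPS against LPS (left) and LPS against Veh (right), with the list median as a black line and called genes filled. With T0 the medians of the genes described and of other LXR targets are 0.92 and 0.96, and those of the other 5 lists lie between -0.18 and 0.06. With library totals no LXR target of the list passes as higher in LPS against Veh, and Abca7 lies below 0.

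**Figure D5:**
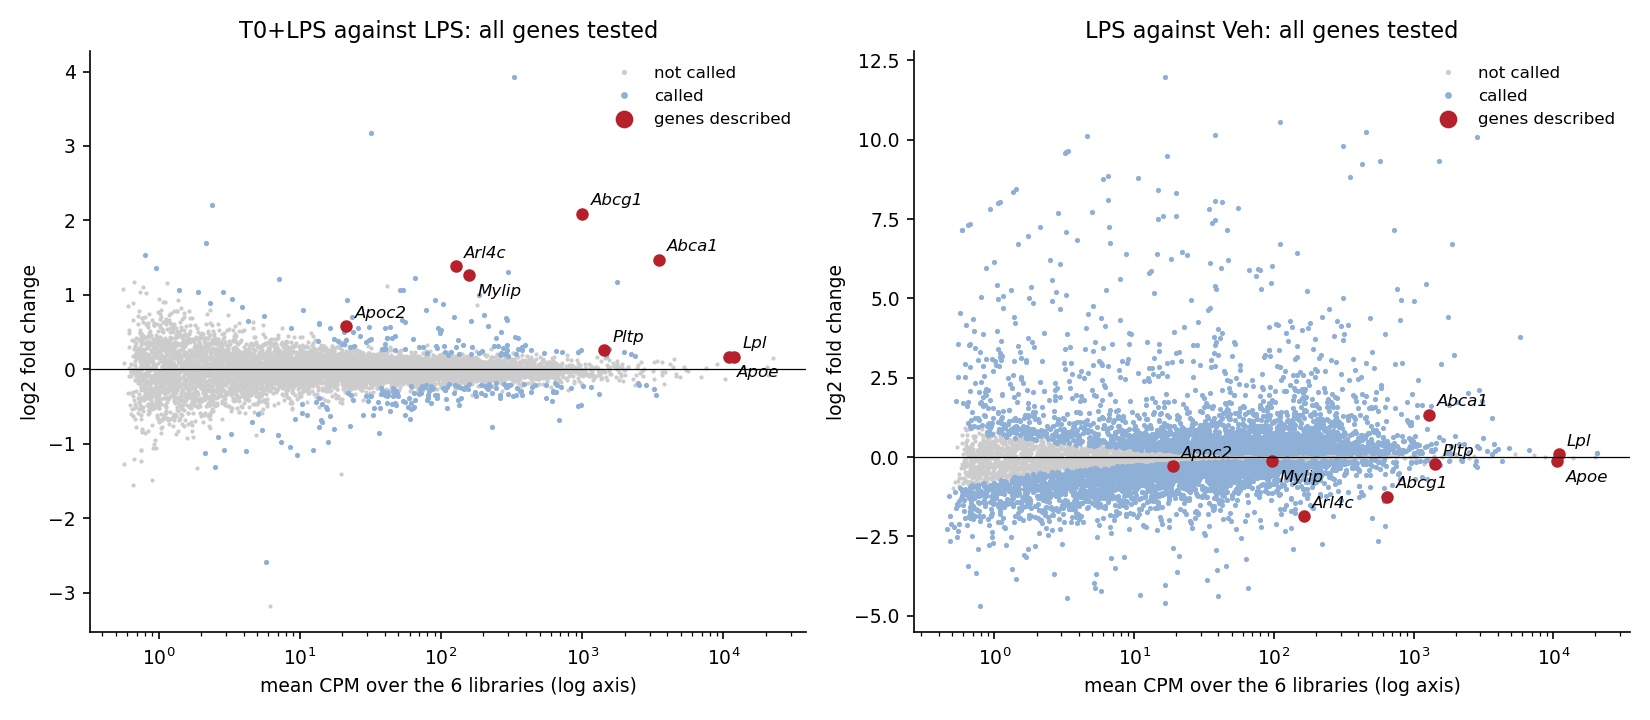
Mean CPM over 6 libraries (log axis) against log2 fold change for all genes tested in T0+LPS against LPS (9348 genes) and LPS against Veh (9559 genes), with the genes described in red. Abcg1 and Abca1 lie among the highest fold changes of the first comparison, while Apoe and Lpl lie near 0 at the right edge of both. With library totals Lpl lies below 0 in LPS against Veh.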

How the data were processed

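The authors deposited raw read counts per RefSeq transcript, made with cutadapt, HISAT2 (mm10) and featureCounts. The authors' own comparison tables (base means, DESeq2 p-values and RPKM ratios for T0+LPS and LPS, and gene names for LPS and Veh) were not used. Of 32850 rows, 6696 had no base of their own and held 0 reads, so reads on shared bases were not counted. Rows were summed per symbol, filtered with filterByExpr, scaled by TMM (factors 1.14 to 1.14 in Veh, 0.931 to 0.948 in the LPS-treated groups) and tested with edgeR 4.0.16 (quasi-likelihood, R 4.3.3, 6 libraries a comparison, Benjamini-Hochberg adjustment, threshold 0.05). The factors given are from all 9 libraries and scale the CPM values, while each main fit computed its own from 6 libraries. Percentages of a mean CPM can therefore differ slightly from the fitted fold change. DESeq2 1.42.0 was an alternative, beside other scalings, filters, units, a replicate block, all 9 libraries and fits without each library. DESeq2 was run without the filter on low counts. The edgeR fits were tried on counts simulated with the fitted spread. Over the 3 comparisons, 73 to 78 of 100 changes of 1.5-fold and 90 to 95 of 100 changes of 2-fold were recovered. Smaller changes were not simulated. Intervals cover the fitted spread and counting error only. Replicate pairs differed beyond sampling noise (chi-square per degree of freedom 2.63 to 6.67).

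The 9 genes, 6 gene lists and 9 marker lists were chosen with earlier results of these data known. Named list genes were, per list and comparison, at most the 4 largest called changes with a mean of at least 5 CPM, plus Nr1h2, Nr1h3 and Rxra; some genes of the rule and lists are not reported here. Likeness was the root mean square difference of centred log2(CPM + 1). Alternatives were tabulated for a list gene only in the comparisons where this rule names it. That limit was set after a wider table had been seen: in the other 61 pairs of a named gene or neighbour and a comparison it held 44 changes of sign, 39 of them in genes not called and 5 in called genes (Fasn in LPS against Veh; Abca7, Ddx49, Gde1 and Mertk in T0+LPS against Veh). The alternatives were planned for the table and the 9 genes, and were then also run for the lists. Python 3.11.15 drew the figures.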

Additional observations from a re-analysis of the deposited data

How the results depend on the processing

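Among the genes described, Abca1, Abcg1 and Arl4c kept their direction and call in every comparison and alternative run, and Mylip did in both comparisons with T0+LPS. For T0+LPS against LPS, 126 genes were called higher and 171 lower, and without a filter on low counts 225 and 285; with 1 library left out the counts ranged from 59 to 167 higher and from 82 to 191 lower. With library totals, LPS against Veh called 1694 genes higher and 5411 lower in place of 3148 and 2981, and T0+LPS against Veh 1659 and 5523 in place of 3121 and 3172, which follows from leaving out the factors for composition. Of the 8 genes, LPS against Veh called 1 higher in place of 2 with library totals, without a filter and with the replicate block, 7 lower in place of 5 with library totals, and 1 to 2 higher and 3 to 5 lower with 1 library left out. In T0+LPS against Veh, library totals gave 3 higher and 3 lower in place of 5 and 1.

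Among the 8 genes and the list genes in the comparisons where the rule names them, the values that changed sign were Lpl in LPS against Veh (-0.18 with library totals), Abca7 in LPS against Veh (-0.00810 with library totals), and, in T0+LPS against Veh, Apoe (-0.24 with library totals, -0.0471 without T0+LPS replicate 1, and -0.0471 to 0.0934 over the libraries left out), Pltp (-0.25 with library totals) and Lpl (-0.0141 with library totals). The cause of these changes was not tested, and the Apoe value without T0+LPS replicate 1 kept the TMM scaling.

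Correlations of same-numbered deviations lay between -0.0466 and 0.0533, and those of different-numbered ones between -0.131 and 0.142. With 3 libraries a group, these values cannot decide whether replicate numbers pair the libraries. With the replicate block, T0+LPS against LPS called 155 higher and 230 lower over the table and 6 of the 8 genes higher, Lpl not passing (edgeR BH-adjusted p = 0.058); in LPS against Veh, 3053 and 2926 genes were called, and Lpl (0.053) and Apoc2 (0.051) did not pass. Apoe passed in T0+LPS against LPS without a filter (edgeR BH-adjusted p = 0.00068, 0.084 to 0.64 with 1 library left out). Few reads limit what can be said of Nr1h2, Nr1h3 and Rxra, whose exon bases are mostly shared.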
